A study of Mus musculus with 22 samples.

Results

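The genes described here are 10 protein-coding genes that are widely used as markers of astrocytes: *Slc1a2*, *Slc1a3*, *Glul*, *Gfap*, *Vim*, *Aqp4*, *Gja1*, *Aldoc*, *S100b* and *Ndrg2*. They are 10 of the 55450 genes of the GENCODE release M21 annotation of GRCm38, of which 13948 carried a footprint of hnRNP A1 in at least 1 of 10 mice and 6731 in at least 3. A footprint is a stretch of genome at which RNA recovered with hnRNP A1 was retained after the sites seen in controls had been removed. It was assigned to a gene when it overlapped the annotated span by at least 1 nt. All 10 genes carried footprints in at least 3 mice, 281 footprints in total.

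The footprints came from hnRNP A1 CLIPseq of whole spinal cords of female C57Bl/6 mice, 1 cord per immunoprecipitation. There were 3 untreated naïve mice and 7 mice with experimental autoimmune encephalomyelitis (EAE), an inflammatory disease of the cord induced by immunization with a myelin oligodendrocyte glycoprotein peptide in complete Freund's adjuvant together with pertussis toxin. The protocol gives an age of 12 weeks at immunization and the series' design text 8 weeks, and cords were taken 15 days after clinical onset. EAE mice 3 and 4 (clinical score 1.5) and 7 (score 1.0) formed the mild group, and EAE mice 1 and 5 (score 2.5) and 2 and 6 (score 3.0) the severe group, by the study's division at a score of 2.5. No clinical score is given in the labels for the naïve mice, which received no immunization. The study notes that EAE 5 had been in remission shortly before the cord was taken.

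hnRNP A1 is an abundant RNA-binding protein that shuttles between nucleus and cytoplasm and takes part in splicing, mRNA stability and translation, and the triplet UAG is its best known motif. In CLIPseq, UV light links the protein to the RNA it touches, an antibody recovers the complex, and the attached RNA is sequenced. Astrocytes are the glial cells that clear glutamate from synapses, convert it to glutamine, buffer water and potassium through channels and gap junctions, and in inflamed tissue become reactive, with more of the intermediate filaments GFAP and vimentin. The question put to the 10 genes was where on their RNAs hnRNP A1 footprints lay, and whether these differed between naïve cords and cords with mild or severe EAE.

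The sequences below are examples of coding sequence covered in several mice, whatever their group. For 5 of the genes they show the longest run of coding sequence, between 20 and 300 nt, in which every base was covered in at least 3 of the 10 mice, 5′ to 3′ on the strand of the gene, as read from the RefSeq sequence of GRCm38.p6. Capitals mark TAG and AGGT, which are UAG and AGGU in the RNA. *Gfap* and *Slc1a3* had no such run, and none is shown for *Aqp4*, *Glul* and *Gja1*. The *Vim* run (chr2:13579435-13579546, plus strand) was covered whole in EAE 3, EAE 4 and EAE 5 and in part in EAE 1. The *Slc1a2* run (chr2:102777444-102777632, plus strand) was covered whole in naïve 1, EAE 3 and EAE 5. The *Aldoc* run (chr11:78325642-78325816, plus strand) was a whole coding exon, covered whole in naïve 1, EAE 3 and EAE 5 and in part in naïve 3 and EAE 4. The *S100b* run (chr10:76257035-76257172, plus strand) was cut to coding sequence at the start codon, and the footprints reached upstream of it. This run was covered whole in naïve 1, EAE 3 and EAE 5 and in part in EAE 1. The *Ndrg2* run (chr14:51911466-51911540, minus strand) was likewise cut at the start codon, with footprints that reached upstream of it. This run was covered whole in EAE 3, EAE 5 and EAE 7.
Vim: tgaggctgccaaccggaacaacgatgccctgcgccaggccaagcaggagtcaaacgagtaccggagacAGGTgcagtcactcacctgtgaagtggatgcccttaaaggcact
Slc1a2: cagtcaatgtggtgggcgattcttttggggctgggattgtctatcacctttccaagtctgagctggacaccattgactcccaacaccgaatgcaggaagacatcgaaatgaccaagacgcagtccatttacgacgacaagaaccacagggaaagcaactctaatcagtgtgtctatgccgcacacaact
Aldoc: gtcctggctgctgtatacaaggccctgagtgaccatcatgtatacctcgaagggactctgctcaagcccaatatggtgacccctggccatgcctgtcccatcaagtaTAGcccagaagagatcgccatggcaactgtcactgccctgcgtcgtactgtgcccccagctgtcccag
S100b: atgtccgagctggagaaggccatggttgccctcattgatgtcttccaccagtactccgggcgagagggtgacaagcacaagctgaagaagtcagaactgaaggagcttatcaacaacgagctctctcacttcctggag
Ndrg2: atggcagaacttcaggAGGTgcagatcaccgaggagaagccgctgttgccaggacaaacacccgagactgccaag

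UAG was present in 1 of these 5 coding runs, that of *Aldoc*, and AGGU in those of *Vim* and *Ndrg2*. Among all coding stretches shared by at least 2 of the 10 mice and within 10% of the same length, UAG was present in 41.2, 58.8, 58.3, 47.9 and 31.1% at the lengths of the *Vim*, *Slc1a2*, *Aldoc*, *S100b* and *Ndrg2* runs. AGGU was present in 26.8, 46.6, 41.7, 31.4 and 17.5% at the same lengths.

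In the 3′ untranslated regions (UTRs), a window of 30 nt holding a UAG is shown from a stretch covered in several mice, with the same capitals. The windows are from *Slc1a2* (chr2:102783366-102783395, plus strand; naïve 3, the 3 mild EAE mice and EAE 5), *Ndrg2* (chr14:51905834-51905863, minus strand; naïve 3, EAE 7, EAE 2 and EAE 5), *Glul* (chr1:153908596-153908625, plus strand; EAE 3, EAE 7 and EAE 5) and *Gfap* (chr11:102887538-102887567, minus strand; naïve 2 and naïve 3). They are shown because sites in the last exon recurred between mice.
Slc1a2: atgTAGcccagaatggcttcaaactctcac
Ndrg2: tgaccTAGGTtctaTAGatgaggaacaatg
Glul: ttccaaatggaagtTAGGTgaggagttgaa
Gfap: TAGtgccttcatatTAGagcaccttctctg

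The lists of the mice differed widely in length, which bears on every value that follows. The 3 naïve lists held 17119 to 17494 footprints and the mild EAE lists 9751 to 24433, whereas the severe EAE lists held 2670 (EAE 1), 209 (EAE 2), 673 (EAE 6) and 31870 (EAE 5). The files give positions without read counts, so the depth behind a footprint is unknown, and a gene without a footprint is one at which none was retained. In whole cords, fewer cells of a type and less RNA per cell cannot be told apart, and neither can be told apart from a change in binding. Footprints also lay in genes of other cell types. They were found in at least 1 mouse for 17 of 18 neuronal genes, 15 of 16 oligodendrocyte genes, 15 of 19 microglia and leukocyte genes, 7 of 7 endothelial genes and 1 of 4 ependymal genes, so the values describe astrocyte-enriched RNAs of a mixed tissue and not isolated astrocytes.

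*Slc1a2*, which encodes GLT-1, the main glutamate transporter of astrocytes, carried 110 of the 281 footprints and 19559 nt of cover summed over the mice, the most of the 10 genes. Its annotated exons add up to 13133 nt, the most of the group, and cover took up 3.78 to 14.1% of them in naïve, 12.4 to 22.8% in mild and 0 to 48.4% in severe EAE mice. Of the 110 footprints, 10 also touched the antisense gene *Gm13872*. Its covered length was 1674, 771 and 2268 nt in naïve mice 1, 2 and 3, 2235, 1847 and 3140 nt in EAE 3, 4 and 7, and 940, 0, 6508 and 176 nt in EAE 1, 2, 5 and 6. Every naïve and mild EAE mouse therefore had cover, naïve and mild values overlapped, and the severe values lay on either side of them. EAE minus naïve was 550 nt (1571 ± 754 nt (SD, n = 3) in naïve and 2121 ± 2238 nt (SD, n = 7) in EAE; two-sided exact permutation p = 0.742, adjusted p = 1 by Benjamini-Hochberg over 6731 genes), but −181 nt without EAE 5.

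Of the *Slc1a2* footprints, 64 had their midpoint in the 3′ UTR, 30 in coding sequence, 8 in the 5′ UTR and 8 in introns. The intronic share was 5 of 30 footprints among naïve mice, 2 of 44 among mild and 1 of 36 among severe EAE mice. In EAE 5, 7 footprints spanned exactly 1 whole coding exon each. Sites along the last exon recurred across groups, among them chr2:102783321-102783740, chr2:102784835-102785268 and chr2:102781415-102781795, each footprinted in 6 mice including naïve 1, naïve 3 and all 3 mild EAE mice.

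The first exon of *Slc1a2* held footprints of 2 separate kinds. Near the start of the gene, 4 EAE mice had a footprint within the 203 nt of chr2:102658752-102658954 in the 5′ UTR, where no naïve mouse had one. These were the 3 mild mice, with 195, 184 and 195 nt in EAE 3, 4 and 7, and EAE 1, with 170 nt. Further along the same exon, within chr2:102658979-102659302, naïve 1, naïve 3, EAE 5 and EAE 6 had footprints of 184, 292, 323 and 176 nt, and no mild mouse had one. No mouse had both. Of the 6755 regions in annotated genes footprinted in at least 4 mice, 632, which is 9.36%, included no naïve mouse. Among the members 5 of 22 such regions did, 3 of them in *Slc1a2*, 1 in *Vim* and 1 in *Glul*.

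**Figure D1:**
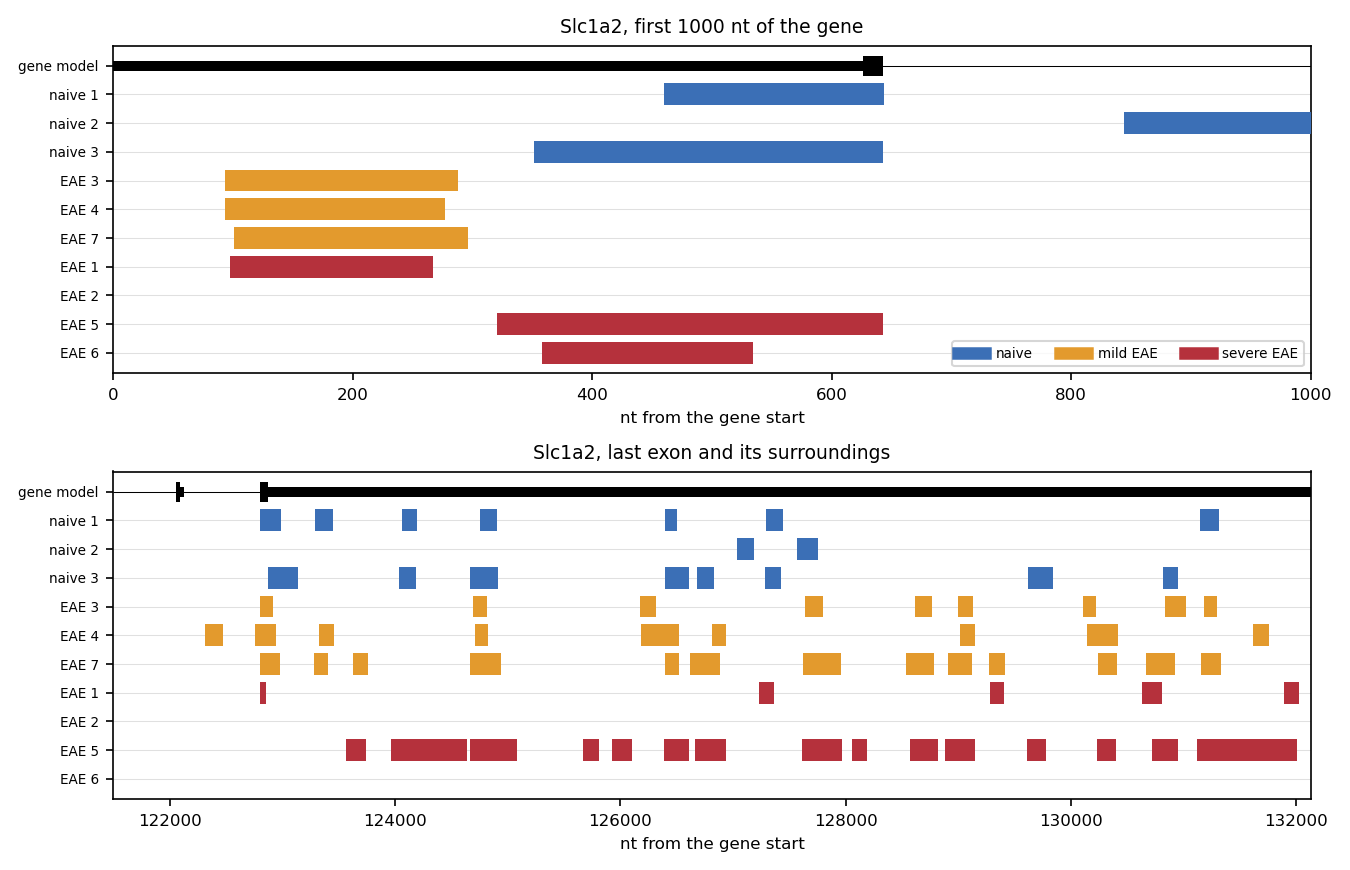
Footprints of each mouse (rows) along the first 1000 nt of *Slc1a2* (top) and its last exon (bottom), with distance from the gene start in nt on the horizontal axis, coding exons drawn as tall boxes and UTRs as low boxes. In the first exon EAE 3, 4, 7 and 1 lie apart from naïve 1, naïve 3, EAE 5 and EAE 6, and along the last exon many sites recur in naïve and mild EAE mice.

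*Slc1a3* encodes GLAST, the other astrocyte glutamate transporter. It had 6 footprints in 4 mice, the fewest of the group, although its exons add up to 8537 nt. Cover was 280 nt in naïve 2, 147 nt in EAE 3, 103 nt in EAE 7 and 130 nt in EAE 5, and 0 in the other 6 mice. In the 3′ UTR, naïve 2 and EAE 5 shared 130 nt (chr15:8634943-8635072). The groups overlapped (exact permutation p = 0.6, adjusted p = 1), and the difference of −39.0 nt became 54.3 nt without naïve 2, the only naïve mouse with cover.

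*Glul* encodes glutamine synthetase, which converts the glutamate taken up by the transporters to glutamine. Naïve mice 1, 2 and 3 had 0, 146 and 383 nt of cover, EAE 3, 4 and 7 had 1237, 324 and 458 nt, and EAE 1, 2, 5 and 6 had 0, 0, 715 and 0 nt. All mild mice had cover, but EAE 4 fell below naïve 3, and EAE 5 was the only severe mouse with cover. EAE minus naïve was 214 nt (exact permutation p = 0.533, adjusted p = 1; 73.2 nt without EAE 3), and mild EAE minus naïve 497 nt (exact permutation p = 0.2, where 0.1 is the smallest that 3 mice against 3 allow).

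In *Glul*, among naïve mice 3 of 4 footprints lay in the 3′ UTR and 1 in coding sequence, and among mild EAE mice 11 of 15 lay in coding sequence (73.3%). The coding share over all protein-coding genes was 55.3% in naïve and 74.9% in mild EAE mice, so the mild share of *Glul* was near that of all genes. A coding exon had footprints of EAE 3, 4, 5 and 7 within chr1:153904537-153904702 and of no naïve mouse, and in all 4 mice a footprint began at the first nucleotide of the exon. Naïve 2 and naïve 3 shared 112 nt near the end of the 3′ UTR (chr1:153909459-153909570), where no EAE mouse had a footprint.

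Of the 3 genes of glutamate handling, a retained footprint was present in every mild EAE mouse for *Slc1a2* and *Glul*, and among severe mice EAE 5, with the longest list, had the most in all 3. None of the 3 genes passed the test in either direction.

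*Gfap* encodes the glial fibrillary acidic protein, the intermediate filament by which astrocytes are most often recognized. It had 12 footprints, with a covered length of 0, 244 and 625 nt in naïve mice 1, 2 and 3, 0 nt in each of EAE 3, 4 and 7, and 155, 0, 391 and 0 nt in EAE 1, 2, 5 and 6. No mild EAE mouse had a retained footprint although the lists of these mice held up to 24433. Naïve 1 had none either, so the groups overlapped. EAE minus naïve was −212 nt (290 ± 315 nt (SD, n = 3) in naïve and 78.0 ± 150 nt (SD, n = 7) in EAE; exact permutation p = 0.125, adjusted p = 0.831). Without naïve 3 the difference was −44.0 nt. Whether the sites seen in inputs and IgG controls, which were removed from the lists and were not analysed here, take a part in the absence from mild EAE was not tested.

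The *Gfap* footprints lay in different parts of the gene. Naïve 2 and naïve 3 shared 111 nt of the 3′ UTR (chr11:102887496-102887606, minus strand), both ending at the same nucleotide, and naïve 3 had 5 further footprints in coding exons, 2 of them whole exons of 86 and 44 nt. The 3 footprints of EAE mice overlapped none of these. EAE 5 had 2 intronic footprints of 239 and 152 nt, and EAE 1 had 1 of 155 nt in the last exon of a shorter transcript (chr11:102890274-102890428). All 12 also lay within *Gm26668*, a long noncoding RNA gene annotated across the whole locus on the opposite strand, and without strand in the files the 2 genes cannot be told apart.

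*Vim* encodes vimentin, the intermediate filament of immature and reactive astrocytes, which endothelial cells, fibroblasts and leukocytes also express. In *Vim* the cover was 0, 105 and 0 nt in naïve mice 1, 2 and 3, 610, 112 and 170 nt in EAE 3, 4 and 7, and 150, 0, 156 and 213 nt in EAE 1, 2, 5 and 6. Every mild EAE mouse was above every naïve mouse, by 112 against 105 nt at the closest pair, and every EAE mouse other than EAE 2, whose list was the shortest, was above every naïve mouse. EAE minus naïve was 167 nt (35.0 ± 60.6 nt (SD, n = 3) in naïve and 202 ± 192 nt (SD, n = 7) in EAE; exact permutation p = 0.183, adjusted p = 0.944). Without EAE 3 the difference was 98.5 nt.

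*Vim* was the only member whose mild and naïve values did not overlap, 1 of 10, beside 5.24% of the 6731 genes with every mild mouse above every naïve mouse and 5.26% with every mild mouse below. Scaled to the mapped unique reads of the libraries, its mild and naïve values overlapped. Markers of other cells that express vimentin were read beside it. The 19 microglia and leukocyte genes held 0.0146 to 0.0270% of all covered nt in naïve, 0.144 to 0.253% in mild and 0.131 to 0.957% in severe EAE mice, with *Aif1*, *Cd3e*, *Trbc2* and *Lck* at no footprint in any mouse. The 0.957% was that of EAE 2 and rested on 233 nt in a list of 209 footprints. EAE 1, 5 and 6 had 0.131, 0.182 and 0.382%. The 7 endothelial genes held 0.00171 to 0.195% in naïve, 0.0175 to 0.0844% in mild and 0 to 0.0860% in severe EAE mice, and no list of fibroblast genes was examined. The part of these cells in the *Vim* values was not tested.

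All 15 *Vim* footprints had their midpoint in coding sequence. The exon of 126 nt at chr2:13579421-13579546, which holds the sequence shown first above, was footprinted in EAE 1, 3, 4 and 5 and in no naïve mouse, and EAE 3 and EAE 5 covered it exactly from end to end. The exon that starts at chr2:13580640 was footprinted in EAE 3, 5 and 7, whole over 44 nt in EAE 3 and EAE 7. EAE 1 and EAE 6, both severe with short lists, shared 116 nt of the first coding exon (chr2:13574589-13574704), which EAE 3 overlapped, while the only naïve footprint lay at the end of that exon (chr2:13574890-13574994) and overlapped no other.

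**Figure D2:**
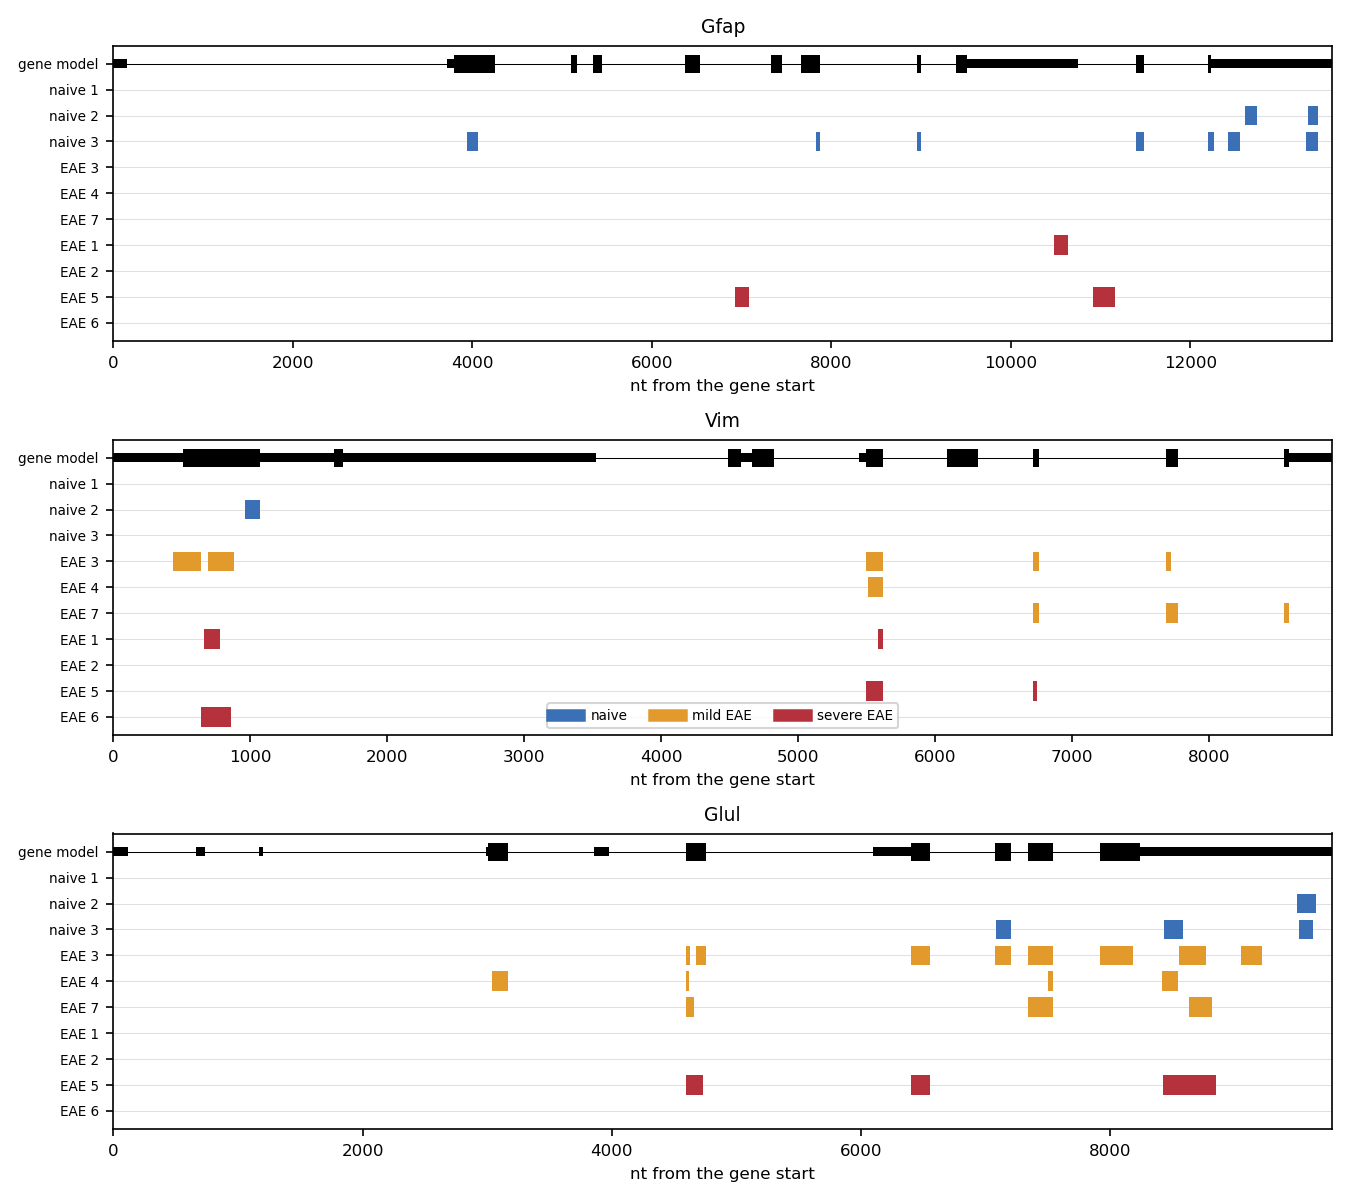
Footprints of each mouse (rows) along *Gfap*, *Vim* and *Glul*, with distance from the gene start in nt on the horizontal axis, coding exons as tall boxes and UTRs as low boxes. *Gfap* has no footprint in EAE 3, 4 and 7, and the *Vim* exon of 126 nt (5495 to 5620 nt) and the *Glul* exon that begins at 4594 nt each have footprints of 4 EAE mice and of no naïve mouse.

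*Aqp4* encodes aquaporin-4, the water channel of astrocyte endfeet. The footprints of *Aqp4* covered 380, 0 and 305 nt in naïve mice 1, 2 and 3, 284, 486 and 1610 nt in EAE 3, 4 and 7, and 297, 0, 2278 and 0 nt in EAE 1, 2, 5 and 6. The groups overlapped, with the 2 longest EAE lists highest (EAE minus naïve 480 nt, exact permutation p = 0.458, adjusted p = 1), and without EAE 5 the difference was 218 nt. The 3′ UTR held 22 of its 33 footprints and coding sequence 10, and none was intronic. The site chr18:15390634-15391090 in the 3′ UTR was footprinted in 6 mice, naïve 1, naïve 3, the 3 mild mice and EAE 5. The core shared by mild mice there was 160 nt and that shared by naïve mice 116 nt. EAE 1 and EAE 5 shared 2 other 3′ UTR stretches of 148 and 149 nt.

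*Gja1* encodes connexin 43, which forms the gap junctions between astrocytes. The length covered in *Gja1* was 334, 0 and 544 nt in naïve mice 1, 2 and 3, 141, 181 and 632 nt in EAE 3, 4 and 7, and 146, 0, 153 and 0 nt in EAE 1, 2, 5 and 6. All mild mice had cover, and no severe mouse reached the lower of the 2 naïve values above 0. Severe EAE minus mild EAE was −243 nt (exact permutation p = 0.0857, adjusted p = 1), and EAE minus naïve −114 nt (exact permutation p = 0.525, adjusted p = 1), which became 12.0 nt without naïve 3. Coding sequence held 9 of its 11 footprints.

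*Aldoc* encodes aldolase C, the brain isoform of a glycolytic enzyme. Naïve mice 1, 2 and 3 had 936, 0 and 376 nt of cover there, EAE 3, 4 and 7 had 425, 189 and 0 nt, and EAE 1, 2, 5 and 6 had 0, 0, 445 and 0 nt. The highest value was that of naïve 1, and 5 mice across all groups had none (EAE minus naïve −286 nt, exact permutation p = 0.258, adjusted p = 1), and without naïve 1 the difference was −36.7 nt. Of its 23 footprints 22 were in coding sequence and none in introns or the 3′ UTR. All 23 had an end exactly at an exon end and 10 spanned a whole exon. The exon of 175 nt shown above was footprinted in 5 mice, and the exon at chr11:78325935-78326134 in 4, in all of which the footprint began at the first nucleotide of the exon. An exon of 84 nt (chr11:78325329-78325412) was covered whole in naïve 1, EAE 3 and EAE 5.

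*S100b* encodes a calcium-binding protein abundant in astrocytes, which some oligodendrocytes also express. The cover of *S100b* was 148, 0 and 0 nt in naïve mice 1, 2 and 3, 299, 0 and 462 nt in EAE 3, 4 and 7, and 149, 0, 387 and 0 nt in EAE 1, 2, 5 and 6, so that 5 mice had none (EAE minus naïve 136 nt, exact permutation p = 0.317, adjusted p = 1), and without EAE 7 the difference was 89.8 nt. In the exon with the start codon, the same 148 nt (chr10:76257025-76257172) were covered in naïve 1, EAE 3 and EAE 5, and 114 nt of them in EAE 1. The other coverage in EAE 3, 5 and 7 was in the 3′ UTR, where all 5 footprints also lay within *Dip2a* on the opposite strand.

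*Ndrg2* encodes a protein of the N-myc downstream-regulated family that is enriched in astrocytes. Footprints covered 477, 283 and 417 nt in naïve mice 1, 2 and 3, 330, 162 and 275 nt in EAE 3, 4 and 7, and 133, 130, 1255 and 0 nt in EAE 1, 2, 5 and 6. Of the 10 mice, EAE 6 alone had none, and the 130 nt of EAE 2 were the single footprint of that mouse in any of the 10 genes. The mild values overlapped the naïve ones (mild EAE minus naïve −137 nt, exact permutation p = 0.2, adjusted p = 0.920), and EAE minus naïve was −65.9 nt (exact permutation p = 0.867, adjusted p = 1), ranging from −11.5 nt without EAE 6 to −221 nt without EAE 5. Coding sequence held 27 of its 39 footprints, and 18 spanned a whole exon. The merged region chr14:51905644-51906306 was footprinted in 7 mice. In 6 of them, naïve 1, naïve 3, EAE 7 and the severe mice EAE 1, EAE 2 and EAE 5, the footprint had its midpoint in the 3′ UTR, and in EAE 3 in coding sequence. The 81-nt exon that contains the start codon (chr14:51911466-51911546) was covered whole in EAE 3, 5 and 7 and in no naïve mouse.

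**Figure D3:**
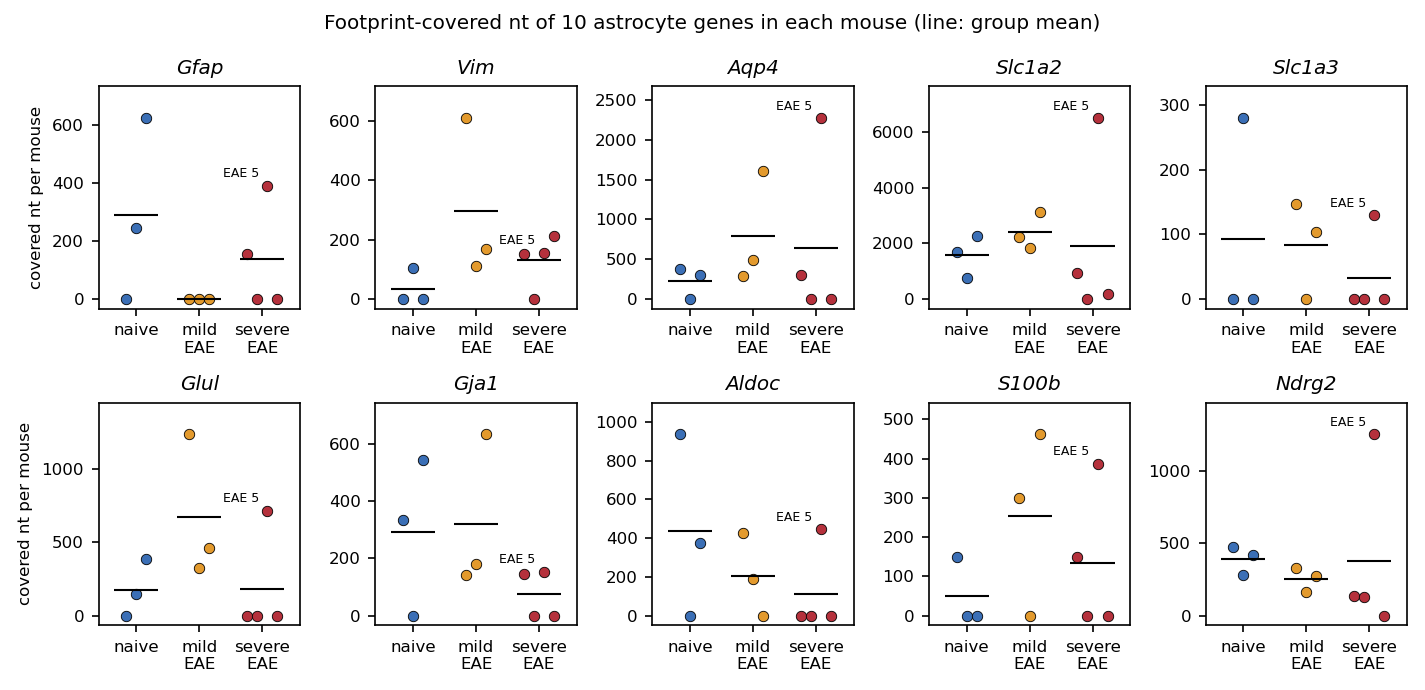
Covered nt (vertical axis, linear, its own scale for each gene) in each of the 10 mice (points) by group, with the group mean as a line. EAE 5 is the highest severe mouse in 9 of the 10 genes, and in all genes but *Vim* the mild EAE points overlap the range of the naïve points.

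Across the 10 genes, the covered length was higher on average in EAE than in naïve mice for 5 (*Slc1a2*, *Aqp4*, *Glul*, *Vim* and *S100b*) and lower for 5 (*Aldoc*, *Gfap*, *Gja1*, *Ndrg2* and *Slc1a3*), with a median difference of 48.5 nt, beside −26.3 nt over the 6731 genes tested. Of those 6731 genes, 40.3% were higher in EAE. None of the 10 passed an adjusted p of 0.05 in the exact permutation test, as was true of all genes tested (0%). None of the 10 had an unadjusted exact p under 0.05, against 416 of 6731 (6.18%). Of these 416 genes, 415 were lower in EAE and 1 was higher, although 2713 of all genes tested were higher. The result therefore says little about the 5 members that were higher in EAE. Among the alternatives, *Vim* had an exact permutation p of 0.0333 on the log2(nt + 1) scale (adjusted p = 0.735) and *Ndrg2* one of 0.0476 without EAE 5 (adjusted p = 0.344). On the log2 scale 307 of 6731 genes tested had an unadjusted exact p under 0.05, and without EAE 5 762 of 5510. The 2 values were picked out of all members and alternatives. The lowest p that 3 mice against 7 allow is 0.00833. For mild EAE against naïve, 6 of the 10 genes were higher and 4 lower (median 115 nt, 4.67 nt over all genes), and for severe EAE 5 were higher and 5 lower (median −5.21 nt, −52.4 nt over all genes). Over all genes tested, 52.1% were higher in mild EAE and 30.3% in severe EAE than in naïve mice. These 3 comparisons share the naïve mice. In no gene was every severe mouse below every naïve mouse (4.72% of all genes tested). For severe EAE against mild EAE, 8 of the 10 genes were lower and 2 higher, beside 5086 lower and 1600 higher of the 6731 genes tested. The median was −135 nt, beside −57.1 nt over all genes tested, and none of the 10 had an exact permutation p under 0.05.

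Recurrence within a group was read against all genes tested. In all 3 naïve mice 2 of the 10 genes were footprinted (*Slc1a2* and *Ndrg2*), against 34.5% of the genes tested. In all 3 mild EAE mice there were 6 (*Vim*, *Aqp4*, *Slc1a2*, *Glul*, *Gja1* and *Ndrg2*), against 32%. In at least 3 of the 4 severe mice there were 3 (*Vim*, *Slc1a2* and *Ndrg2*), against 3.37%.

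Stretches of more than 1 nt covered in at least 2 mice of a group, by the study's overlap criterion, were present in 7 genes among naïve mice, 7 among mild and 5 among severe EAE mice, against 40.3%, 48.3% and 13% of the genes tested. The 10 genes held 15 such stretches among naïve, 29 among mild and 10 among severe EAE mice, of which *Slc1a2* had 7, 14 and 4. *Gfap* had a shared stretch in naïve mice only and *Vim* in both EAE groups but not in naïve mice, though these counts rest on 3, 3 and 4 mice and no test of the difference was made. *S100b* had 1, among severe mice, and *Slc1a3* none in any group. None of the 54 stretches was intronic. EAE 5 was one of the mice in all severe stretches but the one in the first *Vim* exon. Without EAE 5, 2 genes had a shared stretch among severe mice, and without EAE 1 also 2. Among naïve mice the count was 1 without naïve 3, 3 without naïve 1 and 4 without naïve 2, and among mild mice 4 without EAE 3.

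The footprints of the 10 genes were mostly exonic. Of the 281, 48.4% had their midpoint in coding sequence, 41.3% in the 3′ UTR, 5.69% in the 5′ UTR and 4.63% in introns, whereas of 117992 footprints in all protein-coding genes 65.4% were coding, 5.33% in the 3′ UTR and 26.3% intronic. No test was made of this difference, and *Slc1a2* alone held 64 of the 116 footprints in 3′ UTRs. By gene the 3′ UTR share ran from 0 in *Vim* and *Aldoc* to 66.7% in *Aqp4*. Intronic footprints of the 10 genes made up 8.33% of 84 footprints among naïve mice (37.1% in all protein-coding genes), 2.65% of 113 among mild (18.2%) and 3.57% of 84 among severe EAE mice (22.2%).

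Many of the exonic footprints stopped where an exon stops. Of the 268 exonic footprints 131 had an end at an annotated exon end (48.9%), and 49 of these were whole exons, beside 74.7% of the exonic footprints of all protein-coding genes. The share was 100% in *Aldoc*, 81.6% in *Ndrg2* and 73.3% in *Vim*, and 30.4% in *Slc1a2* and 30.3% in *Aqp4*, whose footprints lay largely in long last exons. The authors aligned assembled contigs in spliced mode. Whether contigs that span spliced exons entered the lists as separate blocks ending at exon ends was not tested.

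**Figure D4:**
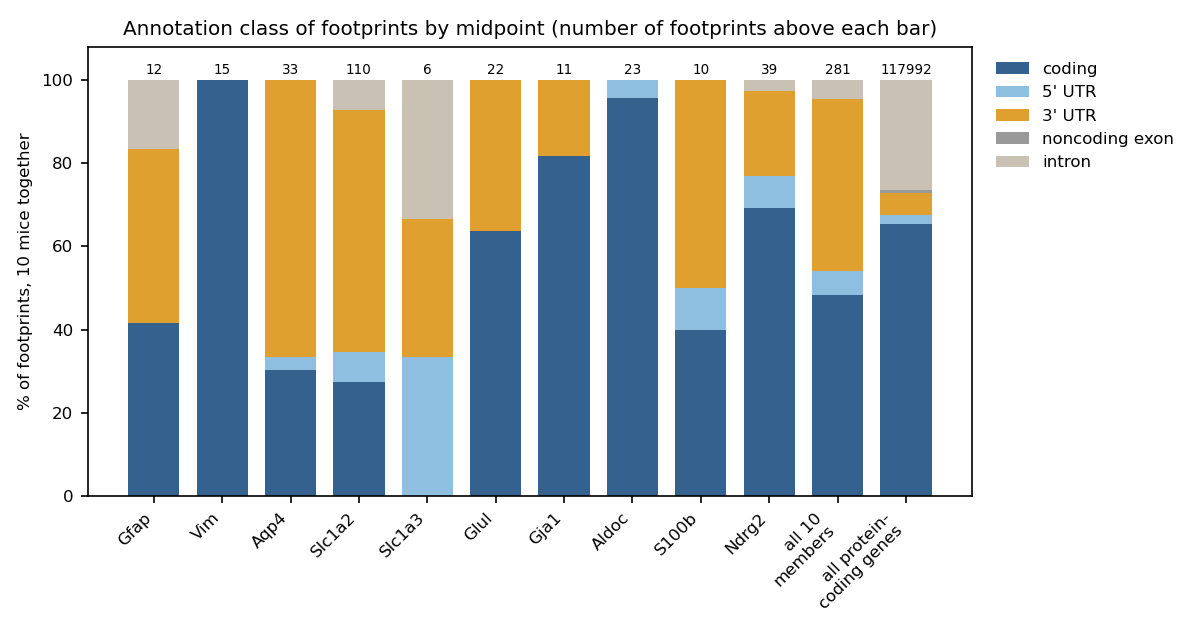
Share of footprints (%, all 10 mice together) by the annotation at their midpoint, for each gene, the 10 genes together and all protein-coding genes, with the number of footprints above each bar. The 3′ UTR part makes up 41.3% in the 10 genes and 5.33% in all protein-coding genes, and the intronic part 4.63% and 26.3%.

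On the strand of the gene, UAG occurred 9.90 times and AGGU 3.67 times per 1000 nt in the 276 member footprints that overlapped a single protein-coding gene, compared with 12.0 and 4.11 times per 1000 nt in all 112889 such footprints. UAG density was 14.8 per 1000 nt in *Gfap*, 12.3 in *Glul*, 12.1 in *Slc1a3*, 11.8 in *Ndrg2* and 11.4 in *Slc1a2*. It was 8.16 in *Aqp4*, 5.48 in *Aldoc*, 3.75 in *Gja1* and 1.98 in *Vim*, and no UAG was found in the 5 footprints of *S100b* counted. AGGU density was highest in *Gfap* (6.36 per 1000 nt) and *Ndrg2* (6.35). All 12 *Gfap* footprints lay within *Gm26668* on the opposite strand, and 10 of *Slc1a2* touched the antisense gene *Gm13872*. The files hold no strand, so the strand of the RNA at these footprints is not known. At least 1 UAG was found in 58.0% of the member footprints and 50.9% of all, and at least 1 AGGU in 38.4% and 30.6%. The footprints differ in length and in coding content between genes, and a match is a description of the letters, not of a binding site.

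Relative to each mouse's own list, the 10 genes took up 0.178, 0.0890 and 0.225% of all covered nt in naïve mice 1, 2 and 3, 0.369, 0.285 and 0.229% in EAE 3, 4 and 7, and 0.597, 0.534, 0.300 and 0.512% in EAE 1, 2, 5 and 6. All EAE values were above all naïve ones, by 0.229 against 0.225% at the closest, and the values of EAE 2 and EAE 6 rested on 1 and 2 footprints. The 36 other astrocyte genes, among them *Slc4a4* (a bicarbonate cotransporter), took up 0.415 to 0.471% in naïve, 0.541 to 0.616% in mild and 0.486 to 0.888% in severe EAE mice. Of these, 24 could be tested, with 13 higher and 11 lower in EAE than in naïve mice (40.3% higher over all genes tested). The median difference was 16.5 nt, and 2 genes had an unadjusted exact permutation p under 0.05 (6.18% of all genes tested). *Gpc5*, a glypican, was covered over 2058, 2325 and 933 nt in naïve mice and 0 to 1026 nt in EAE mice (EAE minus naïve −1299 nt, exact permutation p = 0.025, adjusted p = 0.541).

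The 30 genes associated with reactive astrocytes took up 0.0312, 0.0570 and 0.0545% of covered nt in naïve mice 1, 2 and 3, 0.436, 0.261 and 0.181% in EAE 3, 4 and 7, and 0.334, 0, 0.203 and 0.401% in EAE 1, 2, 5 and 6. All EAE mice but EAE 2 lay above the naïve mice. Of the 30 genes, 23 had a footprint in any mouse and 13 were tested. Among those 13, 11 were higher and 2 lower in EAE (40.3% higher over all genes tested). The median difference was 83.3 nt, and none had an unadjusted exact p under 0.05. A gene without a footprint in naïve mice passes the filter of 3 mice through EAE mice alone, and its direction is then fixed. The count of higher genes is therefore not a test of a rise in EAE. *C3*, the complement component, was covered over 343, 209 and 272 nt in naïve mice, 3363, 1308 and 1591 nt in EAE 3, 4 and 7, and 163, 0, 3192 and 165 nt in EAE 1, 2, 5 and 6 (exact permutation p = 0.25, adjusted p = 1). *Serpina3n*, a protease inhibitor, had no footprint in any naïve mouse and 566, 146 and 837 nt in EAE 3, 4 and 7, and 313, 0, 1300 and 0 nt in EAE 1, 2, 5 and 6 (exact permutation p = 0.167, adjusted p = 0.944). The direction of *Serpina3n* was thus fixed by the filter. Several of the reactive astrocyte genes, *C3* among them, are also expressed by myeloid cells. Of the 13 microglia and leukocyte genes tested 11 were higher and 2 lower in EAE (median 183 nt), a count under the same limit. *Csf1r* (the receptor for a macrophage growth factor) and *Cd74* (the invariant chain of MHC class II) had no footprint in naïve mice, so their direction was fixed too. *C1qb*, a complement gene of the same list, had 131 nt in naïve 2. The part of myeloid cells in the reactive values was not tested.

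**Figure D5:**
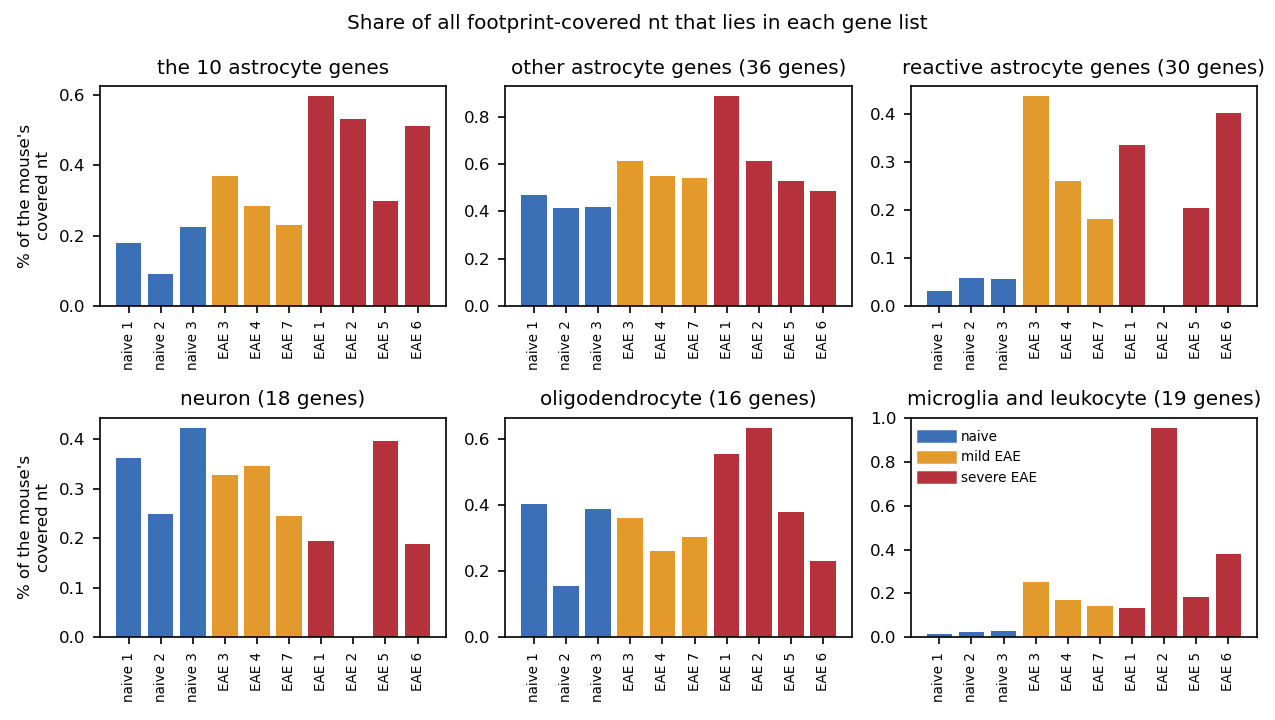
Share (%) of each mouse's covered nt that lies in the 10 astrocyte genes and in 5 other lists, with a bar for each mouse coloured by group and a scale of its own in each panel. The 10 astrocyte genes and the 36 other astrocyte genes are lowest in the naïve mice. The reactive astrocyte and the microglia and leukocyte lists are near 0 in the naïve mice, and the reactive list is at 0 in EAE 2. The neuron and oligodendrocyte lists overlap between groups.

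In comparison, the 18 neuronal genes and the 16 oligodendrocyte genes gave 6 higher and 9 lower (median −32.2 nt) and 4 higher and 10 lower (median −24.7 nt) among those tested. Over all 6731 genes tested, 2713 were higher and 4017 lower in EAE. *Map2* and *Mbp* were the most covered, with 17783 and 22141 nt over the 10 mice, against 19559 nt for *Slc1a2*. Of the endothelial genes, 1 was higher and 4 were lower in EAE (median −88.0 nt), and none of the ependymal genes could be tested.

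The 3 genes whose covered length over the 10 mice was most like that of *Slc1a2*, out of 3655 footprinted in at least 5 mice, were *Zrsr1* (Pearson r = 0.981), *Tbc1d9b* (r = 0.980) and *Rtn4* (r = 0.980). These are correlations over 10 mice that differ in the length of their lists, and the covered length of the whole list itself had a Pearson r of 0.881 with *Slc1a2*, and in each of the 3 genes EAE 5 was highest and EAE 1, 2 and 6 were at 0.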

How the data were processed

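hnRNP A1 CLIPseq was performed on 1 spinal cord per mouse. Per the study's methods and processing notes, the authors trimmed reads (bcl2fastq 2.19.0.316, fastp), assembled them with rnaSPAdes, aligned the contigs to GRCm38 in spliced mode (minimap2 2.17), subtracted sites of the matched input and pooled IgG with bedtools and merged overlapping sites without strand. The deposited lists hold chromosome, start and end. A site shared with the controls is lost, and long contigs join neighbouring sites. Inputs and IgG libraries were not analysed here. The antibody is clone 9H10 in the labels and another clone in the methods.

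Covered nt per gene (GENCODE M21) were tested between groups with two-sided exact permutation of the mice (every split) for 6731 genes footprinted in at least 3 mice, with Benjamini-Hochberg adjustment. The class of a footprint was that of its midpoint (coding before 5′ UTR, 3′ UTR, other exon and intron). The named genes were the 10 members, the 3 most covered genes of each marker list and the 3 most correlated with the most covered member, not all of which are described. Further genes were added as examples. A few items are not reported here. The members and lists were chosen with earlier results of these data known. Alternatives were scales, filters, footprint lengths, exons only, flanks of 1000 nt, leaving out each mouse and the replicate block. EAE mice with over 5000 footprints alone were chosen after seeing the data. Mice are separate animals, but each gave 1 library, so the spread includes technical variation. Python 3.11.15, numpy 2.4.6, pysam 0.24.0, samtools 1.23.1 and matplotlib 3.10.9 were used.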

Additional observations from a re-analysis of the deposited data

Results flagged for a closer look

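In the severe EAE group, EAE 5 lay far from the other 3 mice in covered nt for 6 of the 10 genes: 2278 nt for *Aqp4*, 6508 nt for *Slc1a2*, 130 nt for *Slc1a3*, 715 nt for *Glul*, 445 nt for *Aldoc* and 1255 nt for *Ndrg2*. In each, the gap to the nearest mouse was more of the group's range than Dixon's criterion for 4 values allows. The criterion is set so that chance exceeds it in about 1 group in 20 when values are normally distributed. That rate does not apply to covered lengths with many values of 0. The list of EAE 5 held 31870 footprints, against 209 to 2670 for the others. In *Slc1a3*, *Glul* and *Aldoc* the others were at 0, so any cover in EAE 5 would have exceeded the criterion. The share of all genes that would exceed the criterion was not determined, so the count cannot be read as particular to the 10 genes. As a share of its own list, EAE 5 had the lowest value of the 4 severe mice for the 10 genes together, 0.300%.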

How the results depend on the processing

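No member passed an adjusted p of 0.05 in the exact permutation test under any alternative or with any mouse left out, nor did any of the genes tested, while those with an unadjusted exact p under 0.05 numbered 137 (exons only) to 1234 (per 1000000 mapped unique reads), 762 without EAE 5 and 217 to 254 without a naïve mouse. Directions of EAE minus naïve reversed in these cases. Per 1000000 covered nt, *Gja1* was 0.984 and *Ndrg2* 746. Per 1000000 mapped unique reads, *Slc1a2* was −81.9. On the log2(nt + 1) scale, *Slc1a2* was −1.40 and *Slc1a3* 0.28. With 1 mouse left out, *Slc1a2* ran from −181 nt (EAE 5) to 903 nt, *Slc1a3* from −85.7 to 54.3 nt (naïve 2) and *Gja1* from −260.0 to 12.0 nt (naïve 3). With only the EAE mice of over 5000 footprints, added after seeing the data, *Ndrg2* was 113 nt and *Slc1a3* 1.67 nt. *Gfap*, *Vim*, *Glul*, *Aldoc* and *S100b* reversed in no case. The cause was not tested.

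Members with every mild mouse above every naïve mouse numbered 3 per 1000000 covered nt, 0 per 1000000 mapped unique reads, and 1 to 3 with 1 mouse left out (naïve 3: 3, EAE 4: 3, EAE 3: 2). Members with every severe mouse below every naïve mouse numbered 0 to 1 with 1 mouse left out (naïve 2 or EAE 5: 1). Members with a shared stretch numbered 1 in severe EAE when 3 mice were required, and with 1 mouse left out 1 to 4 in naïve, 4 to 6 in mild EAE (EAE 3: 4) and 2 to 5 in severe EAE (EAE 1 or EAE 5: 2).

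The labels give naïve and EAE mice numbers 1 to 3, but nothing states that a number marks a pair, and deviations of same-numbered mice correlated at −0.17, 0.08 and 0.15 over 6731 genes. With the replicate block (EAE minus naïve of the same number, smallest exact p 0.25), *Slc1a2* was −513 nt and *Aqp4* −34.7 nt, both reversed, and the other members kept their direction.

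Read depth behind a footprint is not in the files, and no interval of counting error is given.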
